A study of Mus musculus with 2 samples.

Results

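Notch pathway genes were measured in mouse ureters cultured with and without a block of WNT ligand secretion. The 10 genes are the receptors *Notch1*, *Notch2* and *Notch3*, the ligands *Jag1*, *Dll1* and *Dll4*, and the target genes *Hes1*, *Hey1*, *Hey2* and *Heyl*. They were taken by gene name from the array, which gave 13 of 39429 probes and 10 of 29924 gene names. The ureters were wildtype NMRI ureters explanted on the day of birth (P0, postnatal day 0) and cultured for 18 h. The treated cultures held 5 µM IWP-2, an inhibitor of Porcupine, the enzyme that every WNT ligand needs for its secretion, and the control cultures held the solvent DMSO at 1:1000. Each of the 4 samples was 1 pool of 5 or 6 ureters. On 1 array a female IWP-2 pool was set against a female control pool, and on the other array a male pair was compared with the dyes exchanged. These are called the female and the male array below, and sex and dye orientation cannot be told apart between them. A whole ureter holds epithelium, smooth muscle, connective tissue, vessels and nerves, so fewer cells of a type and less RNA per cell cannot be told apart in any value given here.

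Notch receptors are single-pass membrane proteins that bind ligands of the Jagged and Delta-like families on neighbouring cells. Binding lets metalloproteases and then gamma-secretase cut the receptor, and the freed intracellular domain enters the nucleus, where it joins the DNA-binding protein RBPJ and coactivators of the Mastermind family. The best known genes switched on this way encode the repressors of the HES and HEY families. In many organs the pathway acts in endothelium, in the smooth muscle of vessel walls and in the sorting of progenitor fates.

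*Notch1*, *Notch2* and *Dll1* were represented by 2 probes each and the other 7 genes by 1. The probes of *Notch1* are shown because they did not give the same values, and those of *Hey1* and *Heyl* because these genes differed most between the female and the male array among the genes bright enough to be tested. The first 30 of the 60 bases of each probe are printed as the array files list them, with no base set in capitals, and with the position that the array files give in the mouse build mm9.
*Notch1*, brighter probe, chr2:26314630-26314689, minus strand, base 8221 of NM_008714: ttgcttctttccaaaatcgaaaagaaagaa
*Notch1*, dimmer probe, chr2:26319440-26319499, minus strand, base 5898 of NM_008714: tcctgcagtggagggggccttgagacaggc
*Hey1*, chr3:8663432-8663491, minus strand, base 2072 of NM_010423: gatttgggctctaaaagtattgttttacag
*Heyl*, chr4:122926975-122927034, plus strand, base 4393 of NM_013905: aatcattttcttcaaggtctttgcccttct

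A RefSeq table of promoters (build GRCm38.p6) held 8 promoters for 7 of the 10 genes, with none listed for *Hes1*, *Hey1* and *Heyl*. Each runs from 250 bases before to 50 bases after the transcription start. TGGGAA, the core letters bound by RBPJ, was searched on both strands, and stood in the *Hey2* promoter and in none of the other 7. Of all 32851 promoters in the table, 25.6% held it. CTTTGAT, letters bound by the TCF and LEF factors of the WNT pathway, stood in none of the 8, and in 3.73% of all promoters. The *Hey2* promoter is shown as the one with matches, and the *Notch1* promoter because *Notch1* had the largest mean change of the 9 genes tested. Both are printed to 20 bases past the start, with the matches in capitals. In *Hey2* a match on the opposite strand begins 207 bases before the start and a match on the gene's own strand begins 3 bases before it.
*Hey2*, chr10:30842764-30843033, minus strand: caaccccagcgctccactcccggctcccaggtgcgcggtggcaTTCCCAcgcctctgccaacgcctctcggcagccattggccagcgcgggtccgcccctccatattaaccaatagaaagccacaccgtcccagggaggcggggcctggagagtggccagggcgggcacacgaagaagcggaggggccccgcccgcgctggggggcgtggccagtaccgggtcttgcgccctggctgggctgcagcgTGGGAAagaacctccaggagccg
*Notch1*, chr2:26503803-26504072, minus strand: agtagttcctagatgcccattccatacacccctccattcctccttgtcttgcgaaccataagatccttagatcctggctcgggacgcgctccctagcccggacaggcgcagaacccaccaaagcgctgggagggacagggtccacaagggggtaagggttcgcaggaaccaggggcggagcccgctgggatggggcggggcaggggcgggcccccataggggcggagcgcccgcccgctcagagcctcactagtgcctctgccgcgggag

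Signals are background-subtracted fluorescence in arbitrary units after loess normalization within the array, averaged over up to 4 spots of a probe, and a change is the log2 of IWP-2 over control in 1 array. Between 68.5% and 70.0% of the spots of a channel lay well above background. The treatment was visible in *Axin2*, a negative feedback gene of WNT signalling, which had a signal of 181 in control and 42.2 with IWP-2 in the female array and of 154 and 46.7 in the male array (log2 fold change -1.91 ± 0.10, SE, adjusted p = 0.000826, limma). The second *Axin2* probe lay near the floor of 15 in all channels. *Lgr5*, another WNT target, read 135 and 157 in the female and male controls and lay at or near the floor with IWP-2, at 15 and 18.6 (adjusted p = 1.61e-05, limma). Markers of smooth muscle, urothelium and lamina propria, the layers of the ureter wall, were all bright enough to be tested.

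None of the Notch genes passed the test for a change with IWP-2. Of the 10 genes, 9 had signals whose mean in control or in IWP-2 exceeded 100 and entered the limma test across all genes. At an adjusted p under 0.05, 0 of these 9 were lower and 0 were higher, where 0.886% of the 14336 genes tested were lower and 0.363% were higher. At an unadjusted p under 0.05 the count was also 0 of 9, against 12.9% of all genes. The filter used for the study's own lists (control signal above 100 and a change of 1.5-fold the same way in both arrays) could be met by 8 of the genes, and 0 passed it in either direction, beside 0.363% of all genes that passed as lower and 0.0783% as higher. The 95% intervals of all 9 fold changes lay between 0.773 and 1.29, hence inside 1.5-fold either way. These intervals rest on 2 arrays and on the spread that limma borrows from the other genes. The median change of the 9 genes was -0.01 on the log2 scale, as it was for all genes tested, and their median size of change without regard to sign was 0.09 beside 0.06 for all genes.

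**Figure D1:**
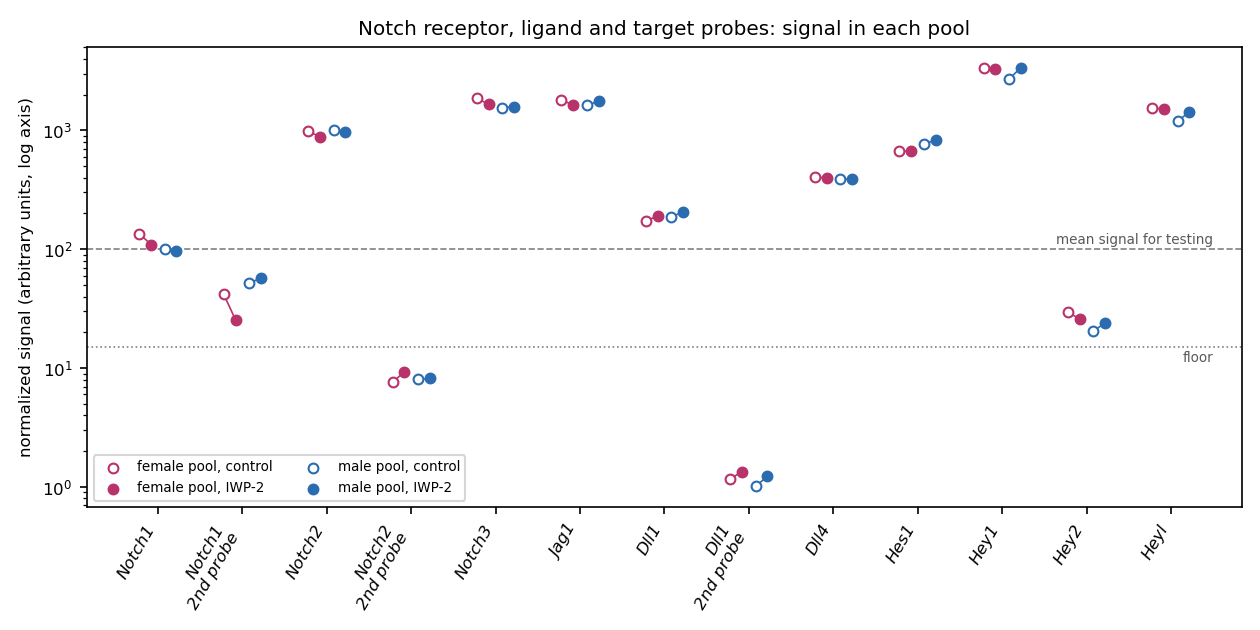
Signal of each Notch probe (log axis, arbitrary units) in the female pools (magenta) and the male pools (blue), with control as open and IWP-2 as filled circles and a line joining the pools of 1 array. The 10 brightest probes of the genes sit above the floor of 15 in every pool, the second probes of *Notch2* and *Dll1* sit below it, and levels of different probes cannot be compared.

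The main probes of the 3 receptors all had mean changes below 0, by amounts that the test did not tell from 0. *Notch1*, the receptor best known from endothelium and early T cells, gave signals of 135 in control and 109 with IWP-2 in the female array, and of 99.5 and 96.0 in the male array. Its 4 spots were all lower with IWP-2 in the female array, while in the male array 2 were lower and 2 higher. The mean change was -0.17 ± 0.08 (SE, n = 2 arrays), with a 95% interval from -0.37 to 0.02 and an adjusted p of 0.476 by limma. This was the largest mean change among the 9 genes, and 7.43% of all genes tested had a lower value. The dimmer *Notch1* probe, which was well above background in all channels but below the mean signal for testing, read 41.6 in control and 25.4 with IWP-2 in the female array and 51.6 and 57.4 in the male array. Its change was -0.71 in the female and 0.15 in the male array, with all 4 spots lower in the former and all 4 higher in the latter. The probes of *Notch1* thus had the same sign in the female array and opposite signs in the male array. When every probe well above background was fitted with the floor lowered to 1, an alternative chosen after seeing the data, the dimmer probe had a mean change of -0.28 ± 0.22 (SE, adjusted p = 0.757, limma).

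*Notch2*, a receptor active in many mesenchymal and epithelial tissues, read 978 in control and 886 with IWP-2 in the female array, and 1000 and 977 in the male array. The IWP-2 pool was lower in both, with a mean change of -0.09 ± 0.07 (SE, n = 2 arrays, 95% interval from -0.26 to 0.08). The second *Notch2* probe lay between 7.57 and 9.35 in the 4 channels, well above background but under the floor of 15. With the floor lowered to 1 its change was 0.30 in the female and 0.02 in the male array, above 0 where the main probe was below it, with a mean of 0.16 ± 0.10 (SE, adjusted p = 0.638, limma). The spots of this probe were split, with 3 higher and 1 lower in the female array and 2 higher and 2 lower in the male array. *Notch3*, the receptor that smooth muscle cells of arteries use, read 1855 and 1657 in the female array, and 1556 and 1579 in the male array. Its change was -0.16 in the female and 0.02 in the male array, each sign shared by all 4 spots of the array, with a mean of -0.07 ± 0.08 (SE, 95% interval from -0.25 to 0.11). The adjusted p by limma was 0.789 for *Notch2* and 0.876 for *Notch3*.

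The ligands did not move together. *Jag1*, a Jagged-type ligand that vessel-wall and many epithelial cells present, read 1811 in control and 1625 with IWP-2 in the female array, and 1622 and 1759 in the male array. The female change of -0.16 and the male change of 0.12 nearly cancelled in the mean of -0.02 ± 0.09 (SE, n = 2 arrays, 95% interval from -0.23 to 0.19). *Dll4*, the Delta-like ligand of arterial and sprouting endothelium, was the flattest of the 9 genes, at 403 in control and 400.4 with IWP-2 in the female array and at 390.0 and 388 in the male array. Its mean change was -0.01 ± 0.07 (SE, 95% interval from -0.17 to 0.15).

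*Dll1*, a Delta-like ligand known from somite formation and neurogenesis, was the one ligand among the 10 genes that was higher with IWP-2 in both arrays. Its main probe read 172 in control and 190.5 with IWP-2 in the female array, and 185 and 207 in the male array. All 4 spots of the female array and all 3 usable spots of the male array were higher. The changes of 0.14 and 0.16 gave a mean of 0.15 ± 0.07 (SE, n = 2 arrays), with a 95% interval from -0.01 to 0.31 and an adjusted p of 0.424 by limma, and 91.4% of all genes tested had a lower mean change. The second *Dll1* probe, designed on another transcript (ENSMUST00000143460) near the start of the locus, was not well above background in any channel. The adjusted p was 0.994 for *Jag1* and 0.996 for *Dll4*.

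The 3 target genes tested had changes near 0 in the female array and above 0 in the male array, and none passed the test. *Hes1*, a repressor that answers Notch and several other signals, read 664 and 668 in the female array and 771 and 830 in the male array. Its mean change was 0.06 ± 0.07 (SE, n = 2 arrays, 95% interval from -0.11 to 0.22, adjusted p = 0.913 by limma). *Hey1*, a repressor found in arteries and other Notch-active tissues, read 3314 in control and 3264 with IWP-2 in the female array, and 2695 and 3349 in the male array. Of the 4 *Hey1* values the male control was thus the low one, though signals were normalized within each array and not between the arrays. The changes were -0.02 and 0.31. The mean was 0.15 ± 0.09 (SE, 95% interval from -0.08 to 0.37, adjusted p = 0.693). *Heyl*, a relative of *Hey1* known from vascular smooth muscle, had the same arrangement, at 1527 and 1520 in the female array and at 1189 and 1440 in the male array. Its mean change was 0.14 ± 0.09 (SE, 95% interval from -0.07 to 0.34, adjusted p = 0.694).

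*Hey2*, a repressor known from arterial endothelium and the heart ventricle, was dim, though well above background in all channels, and did not enter the main test. It read 29.6 in control and 25.9 with IWP-2 in the female array, and 20.5 and 24.0 in the male array. The change of -0.19 in the female array was shared by all 4 spots, as was the change of 0.23 in the male array. With the floor lowered to 1 and every probe well above background fitted, its mean change was 0.02 ± 0.12 (SE, adjusted p = 0.992, limma).

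**Figure D2:**
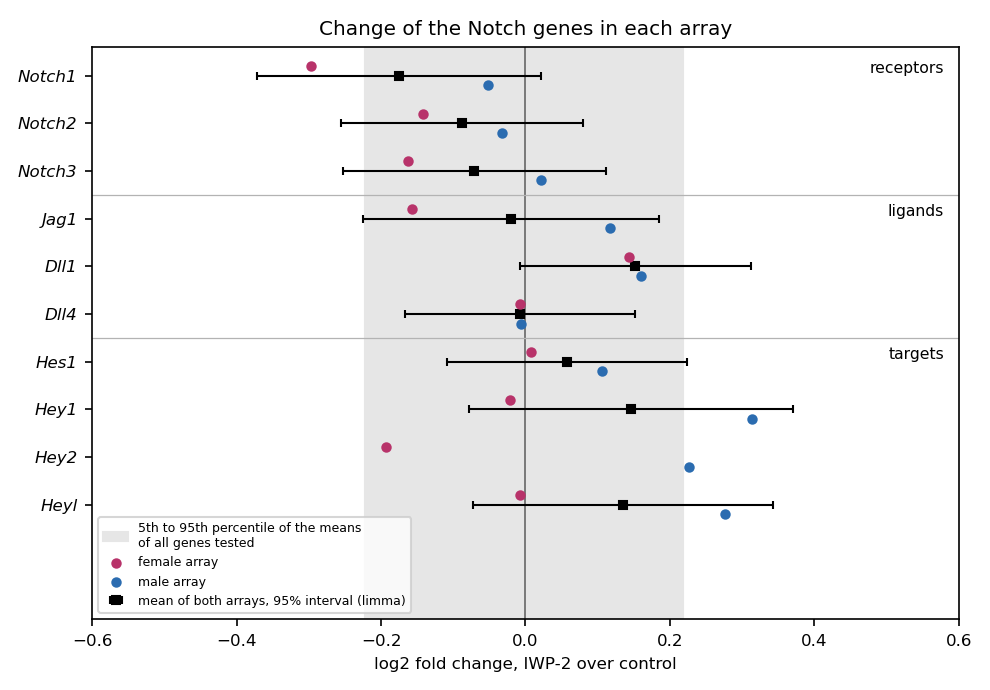
Log2 fold change of IWP-2 over control for the brightest probe of each Notch gene, with the female array in magenta, the male array in blue, and the limma mean and its 95% interval in black (not given for *Hey2*, which was not tested). All 9 intervals include 0, and every blue point lies to the right of its magenta point.

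The female and the male array differed in one direction over these genes. The change with IWP-2 was higher in the male than in the female array in 9 of the 9 genes tested and in *Hey2*, hence in 10 of 10, where 49.1% of all genes tested had the higher value in the male array. The gap ran from 0.00 log2 units in *Dll4* and 0.02 in *Dll1* to 0.34 in *Hey1* among the genes tested and was 0.42 in the dim *Hey2*, and 95% of all genes tested had a gap below 0.28. The 2 arrays had opposite signs in 4 of the 9 genes (*Notch3*, *Jag1*, *Hey1* and *Heyl*), beside 45.2% of all genes. Both were above 0 in *Dll1* and *Hes1*, hence in 2 of 9 beside 25.7% of all genes, and both were below 0 in 3 of 9 (*Notch1*, *Notch2* and *Dll4*) beside 29.1%. The other Notch pathway genes described below did not as a whole share the direction of the gap, with 24 of the 44 tested higher in the male array. Their larger groups differed. The change was higher in the male array in 10 of 12 genes of the nuclear complex and its corepressors. The count was 5 of 12 for endocytosis and turnover and 3 of 7 for cleavage. With 1 array for each sex no test of the gap was possible, and a dye effect on a probe would enter it too.

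**Figure D3:**
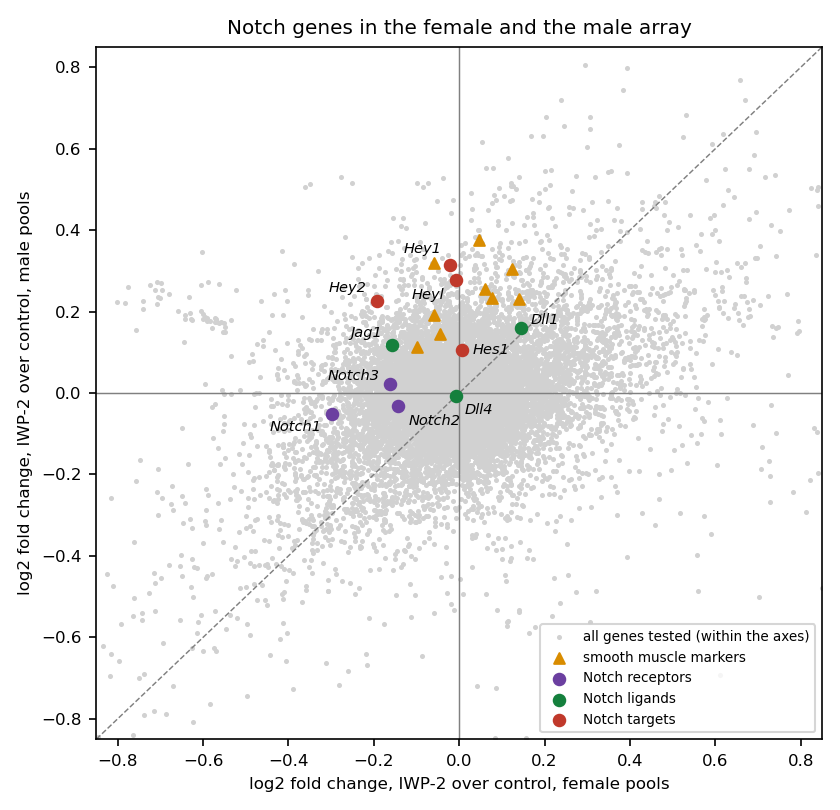
Log2 fold change of IWP-2 over control in the female array (horizontal) against the male array (vertical) for the 10 Notch genes, the 9 smooth muscle markers and all genes tested (grey, those within the axes). All 10 Notch genes lie above the dashed line of equal change, *Dll4* by less than 0.01, as do all 9 smooth muscle markers. Each Notch gene is drawn with its brightest probe.

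Markers of smooth muscle, a main cell type of the ureter wall, also had higher changes in the male array. All 9 markers (*Acta2*, *Actg2*, *Ckm*, *Cnn1*, *Des*, *Myh11*, *Myocd*, *Smtn* and *Tagln*) had the higher change in the male array, with a median change of 0.05 in the female and 0.23 in the male array, and 0 of 9 passed the test. Their summed signal was 100800 in control and 100700 with IWP-2 in the female pools, and 85760 and 100300 in the male pools. The male control was thus the low pool here as in *Hey1* and *Heyl*, by signals that were not normalized between the arrays. Of 13 endothelial markers tested, 12 had the higher change in the male array (median -0.08 in the female and 0.04 in the male array, 0 called). The endothelial markers summed to between 31450 and 34610 over the 4 pools, and the male control was again the lowest. Of 5 markers of the mural cells of vessels tested, 4 had the higher change in the male array. The mural cell markers summed to between 13310 and 14650, also lowest in the male control. All 12 urothelial markers had the lower change in the male array, with a median of 0.44 in the female and 0.14 in the male array. Their sums lay between 134900 and 172200, lowest in the female control. The part of these cell types in the values of the Notch genes was not tested.

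Over all marker lists, 3 of the 53 genes tested were called, 1 as lower and 2 as higher, beside 0.886% and 0.363% of all genes tested. *Rgs5*, a marker of pericytes, rose by 0.46 ± 0.07 (SE, adjusted p = 0.0396, limma), *Shh*, the hedgehog ligand of the urothelium, rose by 0.49 ± 0.08 (adjusted p = 0.0447), and *Aldh1a2*, a retinoic acid enzyme of the lamina propria, had a log2 fold change of -0.63 ± 0.08 (adjusted p = 0.0281). Each had the same sign in both arrays, and each lost its call under at least 3 of the alternative settings, among them the mean of all probes. *Rgs5* did not stand for its list. Of the 5 mural cell markers tested it was the 1 with a mean change above 0, 4 lay below, and the median was -0.16. Of the 12 urothelial markers, 11 lay above 0 and 1 below. The 6 lamina propria markers did not move together. The mean change was below 0 in 3 (*Aldh1a2*, *Car3* and *Thy1*) and above 0 in 3 (*Bmp4*, *Foxf1* and *Ptch1*). All 6 had the higher change in the male array, with a median of -0.35 in the female and -0.09 in the male array. They summed to between 21800 and 28260, lowest in the male IWP-2 pool. The macrophage markers, of which *Fcgr1* lay at the floor in all channels, had medians of 0.22 and 0.20 and sums between 5016 and 5979. The Schwann cell markers had medians of 0.03 and 0.14 and sums between 5344 and 7623. The macrophage sum was lowest in the female control, and the Schwann cell sum in the female IWP-2 pool.

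The rest of the Notch machinery was described with a list of 53 further genes, of which 52 were on the array and 44 were tested. None was called in either direction (0 of 44, beside 0.886% of all genes as lower and 0.363% as higher), and 5 of 44 had an unadjusted p under 0.05, beside 12.9% of all genes. The median change of the 44 genes was 0.02 on the log2 scale. The 5 were *Nrarp*, *Bhlhe40*, *Lfng*, *Adam17* and *Rbpj*, of which *Nrarp*, *Lfng* and *Rbpj* are named whatever their values and the other pair was chosen after its values were seen.

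*Nrarp*, a feedback target that Notch signalling switches on and whose protein restrains the Notch complex, had the largest mean change of the list. It read 1361 in control and 1695 with IWP-2 in the female array, and 1320 and 1723 in the male array. The IWP-2 pool was above its control in each array. The changes of 0.32 and 0.38 gave a mean of 0.35 ± 0.07 (SE, n = 2 arrays, 95% interval from 0.19 to 0.51). The adjusted p over all genes was 0.0811 by limma, and so missed the threshold. *Hes5*, another classical Notch target, was too dim for the test, at 45.8 and 49.1 in the female and 24.6 and 36.1 in the male array, with changes of 0.10 and 0.55. *Hes6*, a HES-family gene that does not depend on Notch in the way *Hes1* does, had a mean change of -0.07 ± 0.07 (SE, adjusted p = 0.871, limma). *Bhlhe40*, a related repressor of the circadian and hypoxia responses, read 830 and 663 in the female array and 865 and 690 in the male array. Its mean change of -0.33 ± 0.07 (SE, 95% interval from -0.48 to -0.17) had an adjusted p of 0.0944 by limma.

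Of the enzymes that add sugars to the receptors, *Lfng*, which tunes their preference between Delta and Jagged ligands, read 156 and 139 in the female array and 129 and 105 in the male array. It was lower with IWP-2 in both, with a mean change of -0.23 ± 0.07 (SE, n = 2 arrays, 95% interval from -0.40 to -0.06, adjusted p = 0.208 by limma). Its relatives *Mfng* and *Rfng* had mean changes of -0.09 ± 0.07 (adjusted p = 0.806) and 0.02 ± 0.07 (adjusted p = 0.991). Over the 5 glycosylation genes the median change was -0.04.

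*Rbpj*, the DNA-binding partner of the Notch intracellular domain, read 1587 and 1206 in the female array and 1397 and 1334 in the male array with its brighter probe, a mean change of -0.23 ± 0.09 (SE, n = 2 arrays, adjusted p = 0.362 by limma). Its dimmer probe went the other way, at 208 and 278 in the female array and 194 and 198 in the male array, a mean change of 0.22, so that no direction can be given for the gene. The 12 genes of the nuclear complex and its corepressors, which include the *Maml* and *Tle* genes, ran from -0.23 to 0.08. Of the cleavage genes, *Adam17*, a metalloprotease that sheds many membrane proteins, read 346 and 475 in the female array and 415 and 438 in the male array, a mean change of 0.27 ± 0.10 (SE, adjusted p = 0.325, limma). The other 6 cleavage genes tested, among them *Adam10*, had adjusted p-values of at least 0.702.

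Among the other receptor and ligand genes, *Notch4*, the receptor largely restricted to endothelium, read 1437 and 1388 in the female array and 1244 and 1236 in the male array, a mean change of -0.03 ± 0.07 (SE, n = 2 arrays, adjusted p = 0.980 by limma). *Jag2*, the other Jagged ligand, read 769 and 795 in the female array and 741 and 818 in the male array, with a mean change of 0.10 ± 0.07 (SE, adjusted p = 0.754). *Dll3*, a ligand-like protein that hampers Notch signalling within the cell that makes it, was too dim for the test, between 21.8 and 24.6 in the 4 channels. The 12 genes of endocytosis and turnover, such as *Numb*, *Mib1* and the *Dtx* genes, had a median change of 0.05 and ran from -0.04 to 0.18.

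**Figure D4:**
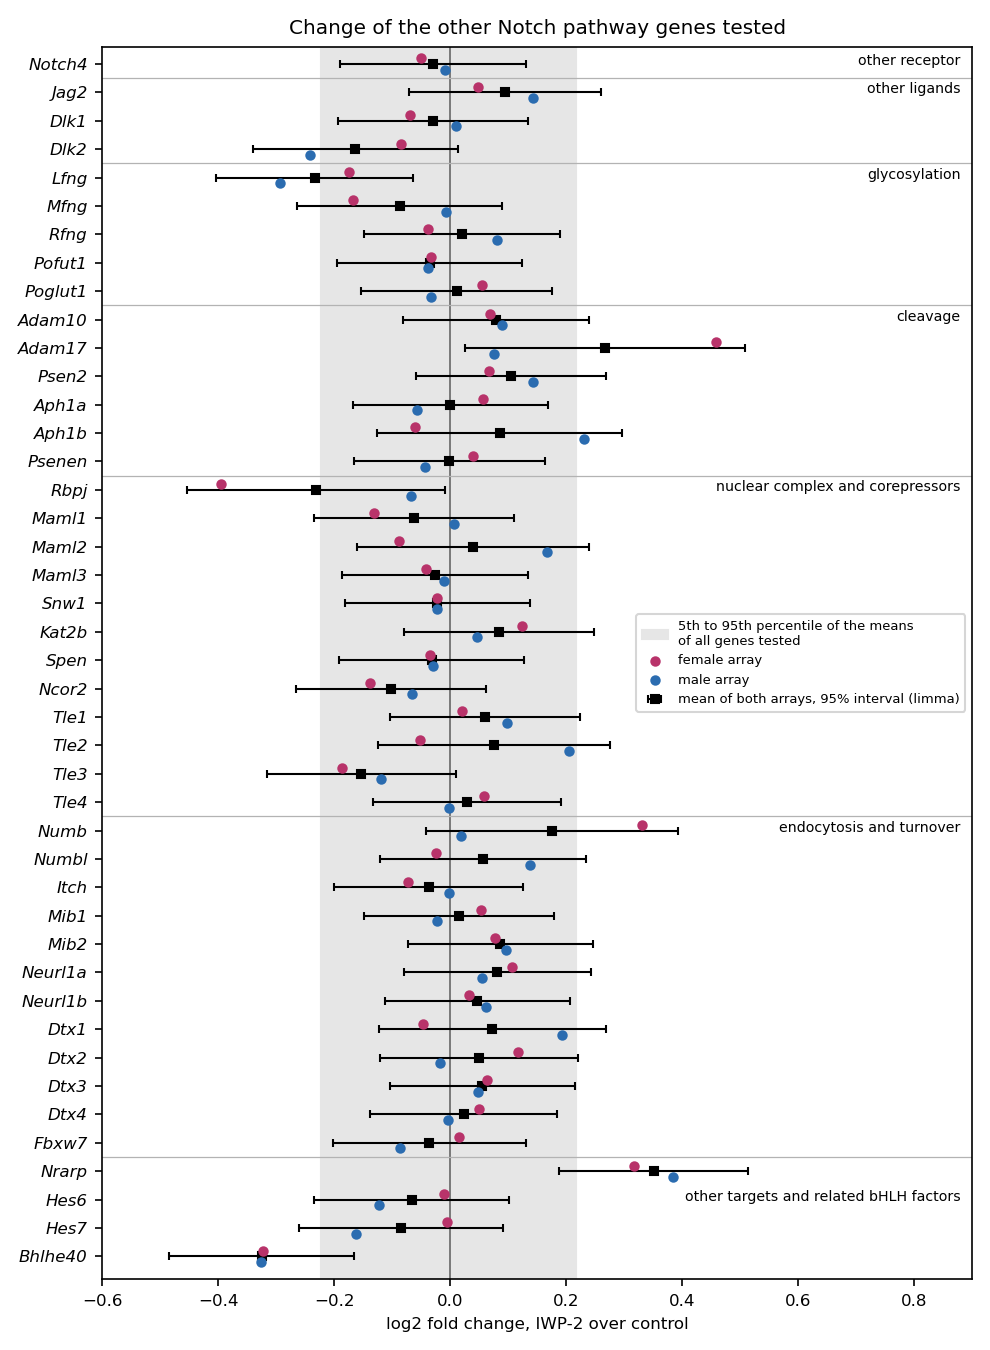
Log2 fold change of IWP-2 over control for the other Notch pathway genes tested, except 1 that is not shown, ordered by role, with the female array in magenta, the male array in blue and the limma mean with its 95% interval in black. The intervals of 5 genes leave out 0 (*Lfng*, *Adam17*, *Rbpj*, *Nrarp* and *Bhlhe40*), and none has an adjusted p under 0.05. The dimmer *Rbpj* probe, which is not drawn, went the other way, with a mean change of 0.22.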

How the data were processed

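RNA of 4 pools was hybridized on 2 two-channel mouse oligonucleotide arrays. The deposited scanner files hold intensities per spot, which Feature Extraction had background-subtracted and dye-normalized before deposit (version 12.2.0.7 per the file headers and 10.7.3.1 in the submitters' processing notes). The deposited log10 ratios of red over green were used to check the direction, and the deposited spot flags, outlier flags and well above background, to choose spots. The deposited series table holds a score per probe, a signed fold change rounded to 1 decimal with a median of 1 in both columns, whose log2 correlated with the ratios computed here at 0.979 in the female and 0.963 in the male array. How it was centred is not known. There were 0 other columns of per-sample values.

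Control spots and flagged spots (3.32% and 3.22%) were left out, and 0 spots were saturated. Signals were normalized by loess within each array (limma 3.58.1, R 4.3.3), averaged over spots, floored at 15 and expressed as log2. The brightest probe over the 4 channels stood for a gene. Genes with a mean signal above 100 in control or in IWP-2 were tested against 0 with lmFit and eBayes, with Benjamini-Hochberg adjustment over all of them and a threshold of 0.05. The number of arrays limits the precision, and the p-values rest on 2 arrays that also differ in sex and dye. Of the 6.49 degrees of freedom of a test, 5.49 come from the spread that limma borrows from the other genes. The method was checked on simulated data. All 10 members were named with every probe. Of the 53 pathway genes, those called and 10 set ones were named, and of the marker lists those called. *Bhlhe40*, *Adam17*, the uncalled markers and the examples given for a group were named after their values were seen. The members and lists were chosen with earlier results of these data known. Protein sequences were not used here, and values of single genes that are withheld are not reported here. Alternatives covered normalization, background, flags, floor, filter, probe choice, each array left out, and the series table.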

Additional observations from a re-analysis of the deposited data

Results flagged for a closer look

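The probes looked at were the 13 of the Notch members and those of the 10 other pathway genes named whatever their values. In 7 of them the female and the male array had log2 fold changes of opposite sign with IWP-2. With 1 array for each sex the difference was not tested, and sex and dye orientation cannot be told apart. The dimmer *Notch1* probe had changes of -0.71 (female) and 0.15 (male), which lie 0.87 log2 units apart. *Hey2* gave -0.19 and 0.23, a difference of 0.42. *Hey1* gave -0.02 and 0.31, a difference of 0.34. *Heyl* gave -0.01 and 0.28, a difference of 0.28. *Jag1* gave -0.16 and 0.12, a difference of 0.27. *Notch3* gave -0.16 and 0.02, a difference of 0.18. *Rfng* gave -0.04 and 0.08, a difference of 0.12. The signs of the 2 arrays were opposite in 45.2% of all genes tested, a larger share than these 7 make of the probes looked at.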

How the results depend on the processing

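The counts of Notch members called (0), of other Notch pathway genes called (0) and of members past the 1.5-fold filter (0) were the same under every alternative run. The median change of the tested members ranged from -0.0217 without the male array to 0.106 without the female array. Under median centring *Jag1* (0.0227), *Dll4* (0.0328) and *Notch4* (0.0123) moved above 0, and with the mean of all probes *Rfng* moved below it (-0.0234), all without a call. The lowest adjusted p of *Nrarp* over the alternatives was 0.0560 and the highest 0.621. Among all genes the count of calls was 179, and it became 117 with no further normalization, 402 with normexp background, 67 with the mean of all probes, 59 with all genes well above background and a floor of 1 (added after seeing the data), and 0 with all genes well above background or no filter at the floor of 15, where probes at the floor in all channels have no variance. Of the calls, 70.9% were lower in the main setting and 56.0% under median centring. No limma call was possible with 1 array left out, for want of residual degrees of freedom. Each ratio already pairs a control and an IWP-2 pool of the same sex on 1 array, so the test on the ratios is itself paired and no further block was fitted. Probes under the floor of 15 (*Notch2* and *Dll1*, second probes) and dim genes such as *Hey2* are limited by their signal.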
